A study of Mus musculus with 6 samples.

Results

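The genes described here are p53 and 34 genes that regulate it or are known as its targets in the mouse. They are 35 of the 26898 genes of the table, chosen by symbol from a written list. These 35 were chosen with earlier results of these data known, so the counts below describe the list. They were followed in primary mouse embryonic fibroblasts (MEFs), connective tissue cells grown directly from embryos, taken at passage 3 from C57BL/6 mice. Both copies of *Kansl1* were floxed in every sample. WT cells had these alleles alone (*Kansl1* fl/fl), while KO cells also had a Cre recombinase under the broadly active CAG promoter (*Kansl1* fl/fl/CAG-cre). All 6 samples had been treated with tamoxifen (1 μM, 48 h), which switches the Cre on. There were 3 samples in each group, WT 4, 5 and 8 and KO 3, 7 and 10, from 3 mice per group according to the methods of the study, and values below are given in that order. KANSL1 is a scaffold subunit of the NSL complex, which acetylates histone H4 at promoters. No cells with Cre and intact *Kansl1* were analysed here, so the loss of *Kansl1* and the presence of active Cre cannot be told apart.

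p53, encoded by *Trp53*, is a transcription factor that is kept scarce because MDM2 marks it for destruction. When DNA is damaged, ribosome assembly fails or an oncogene is active, p53 is stabilised and binds paired copies of a short half-site, mostly close to its target genes. The targets stop the cell cycle, repair DNA, change metabolism or start cell death, and several of them, *Mdm2* first among them, feed back to switch p53 off. Control is exerted mainly on the p53 protein, which was not measured here, so all values below are RNA levels. Cultured MEFs have long served to study this pathway, since cell culture itself can engage p53.

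Depth recovered from the table was 17655495 to 27718259 reads assigned to genes per sample, lowest in KO 3 and highest in KO 7. The targeted gene *Kansl1* stood at 28.5, 26.7 and 24.4 TPM (reads divided by gene length and brought to 1 common sum) in the WT samples and at 13.7, 15.8 and 14.4 TPM in the KO samples. It was lower by a log2 fold change of -0.82 ± 0.11 (SE, adjusted p = 0.000859, limma), with the groups apart. *Esr1*, the oestrogen receptor gene of which a part is commonly fused to tamoxifen-activated Cre proteins, was at 0.154 to 0.192 TPM in WT and 20.8 to 23.3 TPM in KO samples. The summed level of 12 fibroblast markers was 10837 to 15718 TPM in WT and 11582 to 15256 TPM in KO, and none of the 12 was called changed with limma (1 was higher and 0 lower at an unadjusted p under 0.05) or with voom. The summed level of 12 macrophage markers was 46.0 to 55.1 TPM in WT and 94.8 to 186 TPM in KO. Of the 10 tested, 9 were higher in every KO than in every WT sample (13.3% of all genes tested were). Among these 9, *Adgre1* and *Mrc1* were tested only because their KO mean reached 1 TPM. None of the 12 was at 0 in all samples. *Lyz2*, lysozyme, was called higher (log2 fold change 1.59), and the pan-leukocyte gene *Ptprc* was at 0.0872 to 0.257 TPM. The sums of 5 endothelial markers (1.122 to 1.87 TPM in WT, 2.31 to 3.10 TPM in KO) and of 5 epithelial markers (40.4 to 45.8 TPM and 49.3 to 66.4 TPM) were also apart, with none of either list called by limma or voom (1 of 1 and 2 of 2 tested were higher at an unadjusted p under 0.05), and those of muscle, erythroid and neural markers overlapped. The summed level of 18 proliferation genes was 1087 to 1270 TPM in WT and 658 to 870 TPM in KO, with 8 of 18 called lower. *Xist* was at 117 TPM in KO 7 and at most at 0.023 TPM in the other 5 libraries. KO 7 held 0 TPM of 4 Y-linked genes, whereas the other 5 libraries held the Y-linked genes. The part of these differences in the results below was not tested. In bulk RNA, fewer cells of a type and less RNA per cell cannot be told apart.

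As a group the p53 target genes, chosen with earlier results of these data known, were higher in the KO samples. A gene was called changed at an adjusted p under 0.005 (limma on log2(TPM + 1), Benjamini-Hochberg over 14799 genes) with a log2 fold change above 0.5 or below -0.5. All 35 genes passed the filter of 1 TPM in at least 1 group, and 17 were called higher, 0 lower and 18 not called. At an unadjusted p under 0.05 in the same limma fit 2 were lower, *Mdm4* and *Ddb2*, and with voom on recovered reads 0 were called lower. Over all genes tested, 1.64% were called higher and 9.03% lower. At an adjusted p under 0.05 with no minimum fold, 28 of the 35 were higher and 1, *Ddb2*, was lower, against 7.14% and 20.7% of all genes tested. In 29 of the 35 every KO sample was above every WT sample, which held for 13.3% of all genes tested. In 2, *Mdm4* and *Ddb2*, every KO sample was below, against 29.9%, and the groups overlapped in 4. The median log2 fold change of the 35 was 0.63, with a range of -0.64 to 1.58, beside -0.07 for all genes tested. No single sample carried the shift: the median difference from the WT mean over the 35 genes was 0.51 in KO 3, 0.71 in KO 7 and 0.63 in KO 10, and 0.08, 0.02 and -0.12 in WT 4, 5 and 8.

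**Figure D1:**
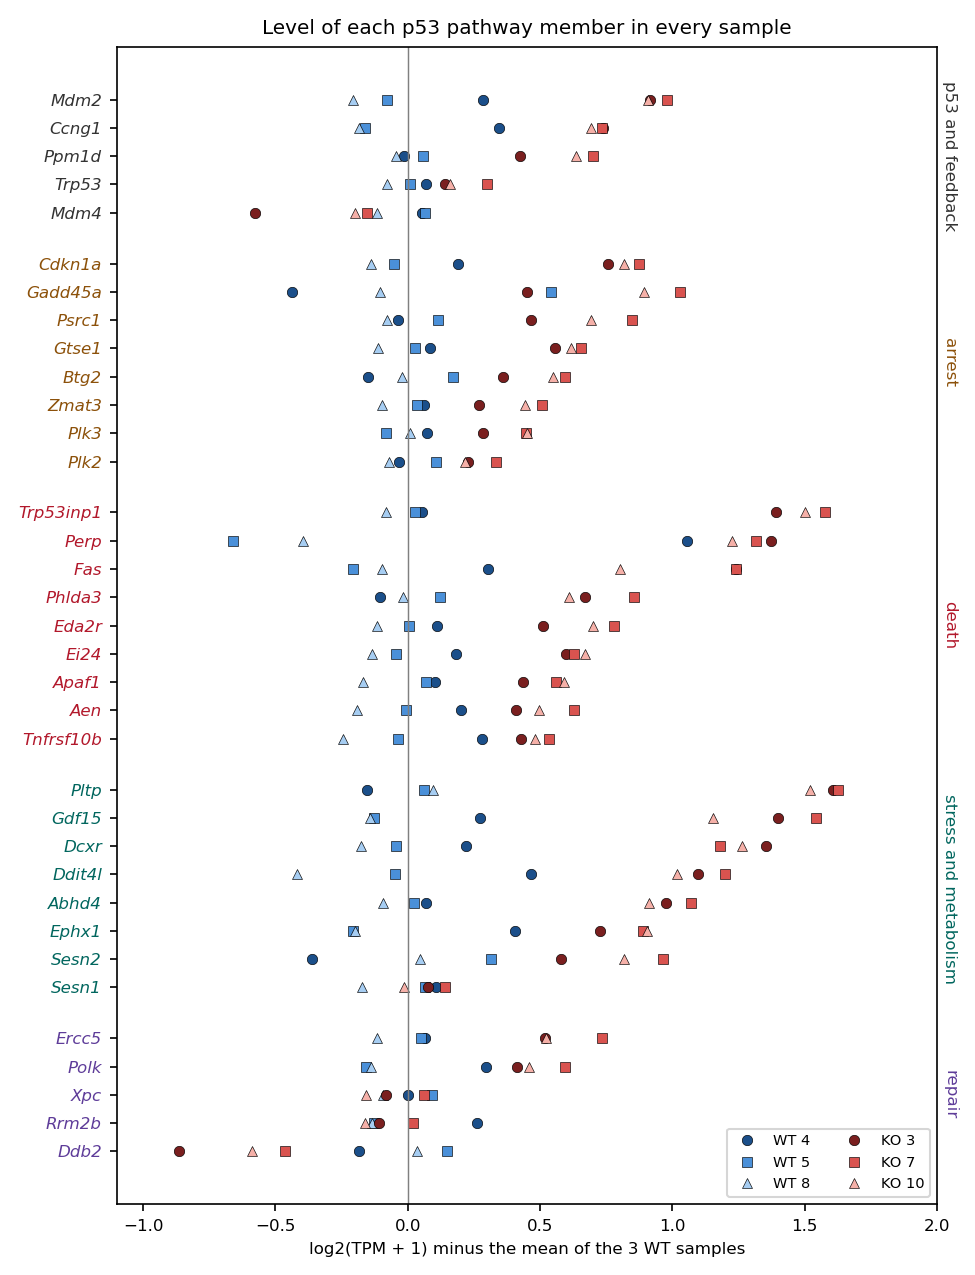
Level of each of the 35 genes in each of the 6 samples, as log2(TPM + 1) minus the mean of the 3 WT samples (horizontal axis), grouped by role. Blue symbols are WT and red symbols KO samples; red lies right of blue in 29 genes, left of it in *Mdm4* and *Ddb2*, and overlaps it in *Gadd45a*, *Sesn1*, *Xpc* and *Rrm2b*.

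The roles differed in how many of their genes were called. Of the stress and metabolism genes 6 of 8 were called higher (median log2 fold change 1.05), of the cell death genes 5 of 9 (0.66), of p53 and its feedback regulators 2 of 5 (0.59), of the growth arrest genes 3 of 8 (0.56) and of the repair genes 1 of 5 (-0.06). These are counts without a test between roles. Libraries within a group were not interchangeable, in these genes or in all genes tested. WT 4 was the highest WT sample in 24 of the 35 genes (68.6%, against 49.8% of all genes tested). KO 7 was the highest KO sample in 27 (77.1%, against 68.6%). The most abundant RNA of each library held 15.5, 18.3 and 24.3% of its TPM in WT 4, 5 and 8. In KO 3, 7 and 10 it held 25.6, 15.5 and 19.9%. The part of this in the ranks of the libraries was not tested. Leaving out KO 7 left 7 genes called higher (0.568% of all genes then), and leaving out WT 4 left 18 (1.7%), of which 14 were among the 17. The count was 8 without WT 8 (0.753%), 9 without KO 3 (0.826%), 9 without KO 10 (0.837%) and 10 without WT 5 (0.951%). With no filter on low values 4 were called higher (0.204% of all genes then), with median-of-ratios scaling 23 (3.2%) and with voom on recovered reads 25 (3.98%).

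**Figure D2:**
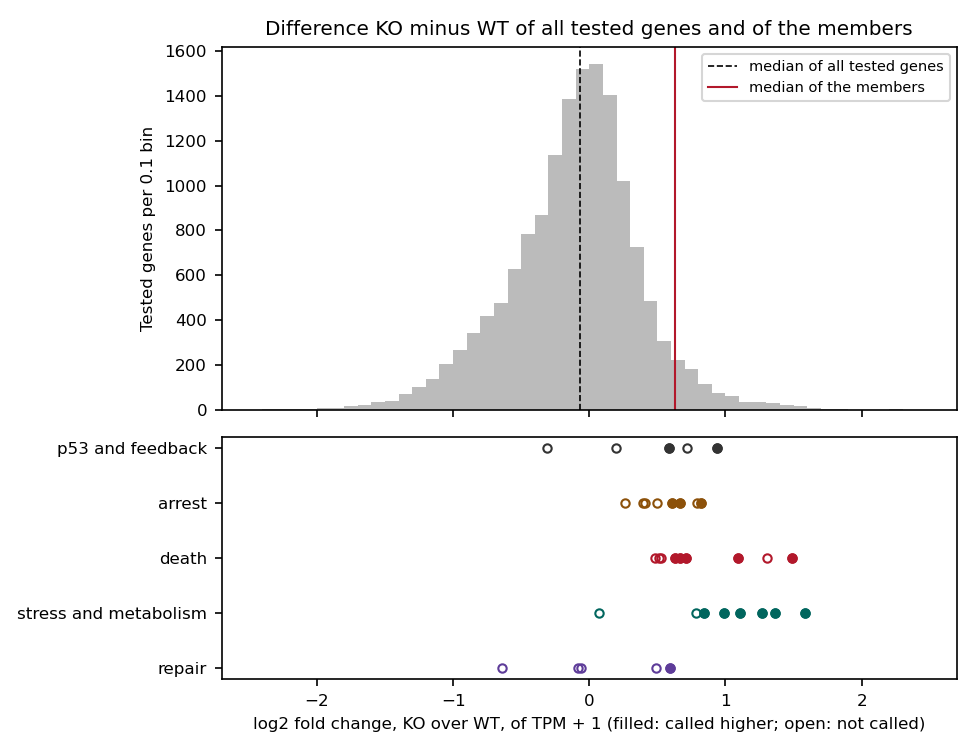
Top, number of tested genes per 0.1 bin of log2 fold change (KO over WT, of TPM + 1); bottom, the same value for the 35 genes by role, filled where called higher. The median of the 35 genes is 0.63 and that of all 14799 tested genes -0.07.

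The promoters of these genes were read for the sequence that p53 binds, since 17 of them were called higher. RefSeq (build GRCm38.p6) gave promoters, from 250 bases before to 50 bases after an annotated start, for 28 of the 35. *Ddb2*, *Perp*, *Rrm2b*, *Tnfrsf10b*, *Trp53inp1*, *Xpc* and *Zmat3* were not analysed here for promoter sequence. An exact p53 half-site (10 bases, its own reverse complement, so both strands were searched at once) lay in 13 of the 28 (46.4%), against 9.55% of 27025 genes with a promoter entry and 8.18% of the 9565 of these that were tested. A pair of half-sites at most 1 base apart, with the core CNNG kept in each and at most 3 mismatches, lay in 8 (28.6%), against 3.27% of all. With at most 1 mismatch it lay in 3, *Cdkn1a*, *Ccng1* and *Gtse1* (10.7%), against 0.130% of all. The list was assembled from known p53 targets, so these shares describe the list. The 3 promoters with the best pairs are shown, 5′ to 3′ on the strand of the gene, with the pair in capitals: *Cdkn1a* at chr17:29090729-29091028 (plus strand, the upstream of 2 annotated starts), *Ccng1* at chr11:40755237-40755536 (minus strand) and *Gtse1* at chr15:85859696-85859995 (plus strand).
Cdkn1a: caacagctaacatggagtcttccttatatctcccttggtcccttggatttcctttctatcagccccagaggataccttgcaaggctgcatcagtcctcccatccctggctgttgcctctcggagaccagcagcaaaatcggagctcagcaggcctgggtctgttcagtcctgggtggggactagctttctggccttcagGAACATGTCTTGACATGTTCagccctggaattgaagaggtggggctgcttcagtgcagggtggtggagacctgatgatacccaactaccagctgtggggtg
Ccng1: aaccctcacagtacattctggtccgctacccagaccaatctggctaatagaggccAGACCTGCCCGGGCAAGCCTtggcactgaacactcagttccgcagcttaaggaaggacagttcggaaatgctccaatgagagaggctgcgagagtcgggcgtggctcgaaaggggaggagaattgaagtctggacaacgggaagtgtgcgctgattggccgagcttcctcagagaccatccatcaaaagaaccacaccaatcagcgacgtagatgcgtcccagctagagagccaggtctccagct
Gtse1: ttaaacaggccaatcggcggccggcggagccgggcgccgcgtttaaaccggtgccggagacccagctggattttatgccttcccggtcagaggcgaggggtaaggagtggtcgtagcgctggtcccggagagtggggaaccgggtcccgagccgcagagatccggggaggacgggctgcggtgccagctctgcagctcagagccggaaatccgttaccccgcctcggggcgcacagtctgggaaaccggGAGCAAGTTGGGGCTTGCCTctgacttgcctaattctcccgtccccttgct

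In *Cdkn1a* the pair began 51 bases before the start, in *Ccng1* 195 bases before it, and in *Gtse1* 1 base before it. The other 5 pairs had 3 mismatches. They are shown for comparison, half-sites in capitals and a spacer base, where there is one, in lower case.
Trp53: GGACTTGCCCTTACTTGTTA
Aen: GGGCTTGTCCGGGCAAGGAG
Sesn1: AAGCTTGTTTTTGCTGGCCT
Pltp: GAGCGAGTCCcCCACTTGTCC
Dcxr: AGCCTTGCCTcGGTCACGCCC

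Having an exact half-site in this window did not sort the genes by call. Of the 13 genes with one, 7 were called higher and 6 were not, and of the 15 without one, 9 were called higher and 6 were not. *Dcxr* and *Pltp*, among the genes with the largest differences, had no exact half-site here, while *Sesn1*, whose groups overlapped, had one. A match of letters is no evidence of binding, and the absence of a match covers this window only.

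Among p53 and the genes that feed back on it, the RNA of p53 itself did not pass the test and that of its main inhibitor was higher, by 1.90 times in the group means. *Trp53* (chr11:69580359-69591873, mm10, plus strand) was at 109.9, 106 and 99.2 TPM in WT and 116, 129 and 117 TPM in KO. Every KO sample was above every WT sample, but the log2 fold change of 0.20 (95% interval -0.01 to 0.41) was not called (adjusted p = 0.149). *Mdm2*, the ubiquitin ligase that degrades p53 (chr10:117688875-117710758, minus strand), was at 136, 106 and 96.5 TPM in WT and 211, 221 and 210.3 TPM in KO. The KO samples lay close together and well above WT 4, the highest WT sample, and the log2 fold change was 0.93 ± 0.13 (SE, adjusted p = 0.00098). The call was lost without KO 3 (adjusted p = 0.00556) and with no filter on low values (adjusted p = 0.00756), and held in the other 5 fits that left out a sample. *Ppm1d*, a phosphatase that turns p53 signalling off, was at 11.4, 12.0 and 11.1 TPM in WT and 15.7, 19.3 and 18.4 TPM in KO, a log2 fold change of 0.59 ± 0.11 (adjusted p = 0.00499), and it stayed called in 1 of the 6 fits that left out a sample. *Ccng1*, cyclin G1, which helps MDM2 act, was the most abundant of the 35 genes, at 677, 477 and 469.8 TPM in WT and 889.9, 886 and 861 TPM in KO. Its log2 fold change of 0.72 ± 0.14 gave an adjusted p of 0.00502. *Ppm1d* and *Ccng1* thus stand just inside and just outside the threshold, and without WT 4, the highest WT sample, *Ccng1* was called (log2 fold change 0.89, adjusted p = 0.000487). *Mdm4*, the inhibitory partner of MDM2, went the other way, at 19.3, 19.5 and 17.1 TPM in WT and 12.1, 16.6 and 16.1 TPM in KO. All KO samples were below all WT samples, KO 3 farthest, and the log2 fold change of -0.31 (95% interval -0.62 to -0.01) was not called (adjusted p = 0.121). Without KO 3 it was -0.18 (adjusted p = 0.264), and with median-of-ratios scaling of all 6 samples -0.21 (adjusted p = 0.0505, limma). KO 3 was the lowest KO sample in 76.2% of all genes tested, so its place is not particular to *Mdm4*.

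**Figure D3:**
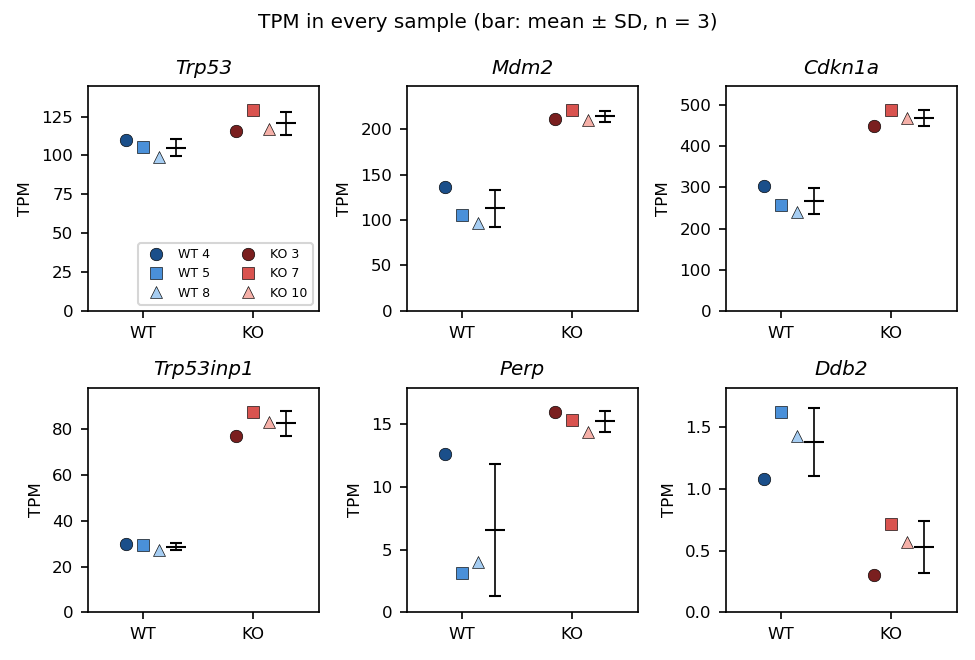
TPM (vertical axes, starting at 0) of 6 genes in every sample, with the mean and SD of each group of 3 as a bar. *Trp53* groups lie close together, *Mdm2*, *Cdkn1a* and *Trp53inp1* are higher in all KO samples, *Perp* has 1 WT sample near the KO level, and *Ddb2* is lower in all KO samples.

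Of the growth arrest genes *Cdkn1a* (chr17:29090976-29100727, plus strand) had the largest log2 fold change of TPM + 1. It encodes p21, the inhibitor of cyclin-dependent kinases through which p53 halts the cycle. It was at 303, 256 and 241 TPM in WT and 450.3, 488 and 469.6 TPM in KO. The groups were far apart, with a log2 fold change of 0.82 ± 0.11 (SE, adjusted p = 0.000797). The call held with any 1 sample left out and was lost with no filter on low values (adjusted p = 0.00606, limma). In 273 bases its exons overlap those of an unnamed gene on the opposite strand, whose reads cannot be told apart without strand. *Gtse1*, a microtubule-associated protein that shuttles p53 out of the nucleus, was at 71.0, 68.2 and 61.7 TPM in WT and 98.9, 106 and 103 TPM in KO (log2 fold change 0.61 ± 0.10, adjusted p = 0.00178). *Psrc1*, a microtubule regulator, was at 58.0, 64.5 and 56.3 TPM in WT and 82.5, 108 and 96.9 TPM in KO (0.67 ± 0.12, adjusted p = 0.00309). Both encode proteins of the spindle, and both were higher while 8 of 18 proliferation genes were called lower (9.03% of all genes tested) and 17 of the 18 were below WT in every KO sample (29.9%). With 1 sample left out, their calls were less firm than that of *Cdkn1a*. Each stayed called in 1 of these 6 fits, *Gtse1* without WT 4 and *Psrc1* without KO 3. The adjusted p ran from 0.00244 to 0.0108 and from 0.00349 to 0.0131 (limma).

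The other 5 arrest genes were not called, though all were higher on average. *Btg2*, an antiproliferative regulator of mRNA decay, was at 96.6, 121 and 106 TPM in WT and 138, 163 and 157 TPM in KO (log2 fold change 0.50, adjusted p = 0.0105). *Zmat3*, an RNA-binding regulator of splicing, was at 45.2, 44.3 and 40.4 TPM in WT and 52.3, 62.0 and 59.2 TPM in KO (0.41, adjusted p = 0.0177). *Plk3*, a stress-responsive kinase, was at 37.4, 33.5 and 35.7 TPM in WT and 43.5, 48.8 and 48.9 TPM in KO (0.39, adjusted p = 0.0171). In these 3 genes the groups did not overlap, but the differences were small. *Gadd45a*, a stress sensor that checks the cycle before mitosis, was at 6.16, 13.1 and 8.01 TPM in WT and 12.2, 18.8 and 17.0 TPM in KO. WT 5 lay above KO 3, so the groups overlapped (0.79 ± 0.24, adjusted p = 0.036). *Plk2*, a kinase of the centriole cycle, was on average 291 ± 19.2 TPM (SD, n = 3) in WT and 348 ± 15.5 TPM in KO, a log2 fold change of 0.26 with a 95% interval of 0.05 to 0.47 (adjusted p = 0.068, limma).

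All 9 cell death genes were higher in every KO sample than in every WT sample, and 5 were called, beside 13.3% and 1.64% of all genes tested. *Trp53inp1*, a nuclear cofactor that aids p53 in its proapoptotic role and also takes part in autophagy (chr4:11156431-11174379, plus strand), had the largest difference of them. It was at 29.8, 29.3 and 27.0 TPM in WT and 76.8, 87.5 and 83.0 TPM in KO, a ratio of group means of 2.87. The spread within groups was small, and the log2 fold change was 1.49 ± 0.10 (SE, adjusted p = 0.000126). *Fas*, the death receptor, was at 4.37, 2.77 and 3.07 TPM in WT and 9.27, 9.26 and 6.57 TPM in KO (1.09 ± 0.18, adjusted p = 0.00233). At 50 to 73 reads per WT library and 121 to 185 per KO library it was among the less well counted genes. *Phlda3*, which blocks AKT at the membrane, was at 217, 254 and 229.6 TPM in WT and 371, 422 and 356 TPM in KO (0.71 ± 0.11, adjusted p = 0.00136). *Eda2r*, a TNF receptor family member on the X chromosome (chrX:97333840-97377216, minus strand), was at 32.3, 29.9 and 27.4 TPM in WT and 42.9, 51.9 and 49.0 TPM in KO (0.66 ± 0.11, adjusted p = 0.00249). KO 7, the library with high *Xist*, was its highest sample, and without KO 7 the log2 fold change was 0.60 (adjusted p = 0.0102, limma). This is not particular to *Eda2r*, since KO 7 was the highest KO sample in 77.1% of the 35 genes and 68.6% of all genes tested. *Ei24*, an endoplasmic reticulum protein also known for a role in autophagy, was at 51.9, 44.2 and 41.5 TPM in WT and 69.6, 71.1 and 73.3 TPM in KO (0.63 ± 0.11, adjusted p = 0.00256). Over the 6 fits that left out a sample, *Trp53inp1* stayed called in 6, *Phlda3* in 4 (not without KO 3 or KO 7), *Fas* and *Eda2r* in 2 each and *Ei24* in 1.

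The 4 death genes not called kept the same order of groups. *Perp*, a membrane protein of desmosomes and apoptosis, was at 12.6, 3.15 and 4.00 TPM in WT and 16.0, 15.3 and 14.3 TPM in KO. WT 4 lay near the KO samples and far from the other two WT samples, and the log2 fold change of 1.30 ± 0.36 had an adjusted p of 0.0253. Without WT 4 it was 1.83 (adjusted p = 0.000333). *Apaf1*, the scaffold of the apoptosome, was at 25.3, 24.6 and 20.8 TPM in WT and 32.1, 35.04 and 35.9 TPM in KO (0.53, adjusted p = 0.00724). *Aen*, an exonuclease that fragments DNA in dying cells, was at 70.9, 61.3 and 53.9 TPM in WT and 82.1, 95.7 and 87.3 TPM in KO (0.51, adjusted p = 0.0122). *Tnfrsf10b*, the receptor of TRAIL, was at 55.9, 44.6 and 38.6 TPM in WT and 61.9, 66.8 and 64.3 TPM in KO (0.48, adjusted p = 0.0252). In all 4, WT 4 was the highest WT sample.

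Of the 8 stress, secreted and metabolic targets 6 were called higher. *Pltp*, the phospholipid transfer protein of lipoproteins (chr2:164839518-164857711, minus strand), was at 2.50, 3.07 and 3.17 TPM in WT and 10.9, 11.0 and 10.2 TPM in KO, a ratio of group means of 3.67. Its log2 fold change of 1.58 ± 0.13 (SE, adjusted p = 0.000151) was the highest of the 35, and it rests on 52 to 77 reads per WT library and 203 to 274 per KO library. Its exons share 495 bases with *Ctsa* on the opposite strand, and whether strand was used in counting is not given in the sources used here. *Gdf15*, a secreted stress cytokine, was at 5.20, 3.69 and 3.64 TPM in WT and 12.5, 13.9 and 10.4 TPM in KO (1.36 ± 0.16, adjusted p = 0.000487). *Dcxr*, dicarbonyl/L-xylulose reductase, was at 20.7, 17.0 and 15.5 TPM in WT and 46.6, 41.2 and 43.7 TPM in KO (1.27 ± 0.12, adjusted p = 0.000263). *Abhd4*, a lipid hydrolase, was at 40.6, 39.3 and 36.2 TPM in WT and 77.0, 82.2 and 73.7 TPM in KO (0.99 ± 0.10, adjusted p = 0.000275). All 4 had every KO sample well clear of every WT sample, and each call held with any 1 sample left out. With no filter on low values *Gdf15* was not called (adjusted p = 0.00564, limma), while *Pltp*, *Dcxr* and *Abhd4* stayed called.

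*Ddit4l*, an inhibitor of mTORC1, was at 12.6, 8.53 and 6.36 TPM in WT and 20.04, 21.6 and 18.9 TPM in KO (log2 fold change 1.10 ± 0.20, adjusted p = 0.00321). *Ephx1*, microsomal epoxide hydrolase, was at 116, 75.7 and 76.1 TPM in WT and 146, 163 and 165 TPM in KO (0.84 ± 0.16, adjusted p = 0.00462). In both, WT 4 was the highest WT sample. The calls stood without WT 4, where the log2 fold changes were 1.34 and 1.04, and were lost when any 1 of the other 5 samples was left out. *Sesn2*, a sestrin that senses leucine and restrains mTORC1, was at 44.0, 70.9 and 58.7 TPM in WT and 85.5, 112 and 101 TPM in KO. The groups did not overlap, and the log2 fold change of 0.79 ± 0.17 had an adjusted p of 0.00822. Its relative *Sesn1* differed by 0.07 on the log2 scale, with a 95% interval of -0.22 to 0.36 (adjusted p = 0.73), at 6.52 ± 0.767 TPM (SD, n = 3) in WT and 6.86 ± 0.424 TPM in KO, limma.

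The repair genes did not move together. *Ercc5*, the XPG endonuclease of nucleotide excision repair, was at 16.4, 16.3 and 14.4 TPM in WT and 22.9, 26.7 and 22.9 TPM in KO (log2 fold change 0.59 ± 0.11, adjusted p = 0.00443). It was called with all 6 samples, and the call was lost whichever sample was left out (adjusted p 0.00746 to 0.0167). *Polk*, a translesion DNA polymerase, was at 25.7, 18.5 and 18.8 TPM in WT and 28.0, 31.9 and 28.9 TPM in KO (0.49, adjusted p = 0.0271). *Ddb2*, a damage sensor of nucleotide excision repair, was the only one of the 35 lower at an adjusted p under 0.05, at 1.08, 1.63 and 1.43 TPM in WT and 0.302, 0.717 and 0.573 TPM in KO. All KO samples were below all WT samples (-0.64 ± 0.21, adjusted p = 0.0495), and the adjusted p was 0.0512 to 0.161 with 1 sample left out. The log2 fold change was -1.27 with a pseudocount of 0.1 (adjusted p = 0.0617) and -1.26 with voom (adjusted p = 0.0158). These values rest on 24 to 39 reads per WT library and 6 to 19 per KO library. *Ddb2* passed the filter only through its WT level, and 652 bases of its exons overlap *Acp2* on the opposite strand. *Xpc*, the lesion recognition protein, differed by -0.06 (95% interval -0.35 to 0.23), at 6.06 ± 0.457 TPM (SD) in WT and 5.78 ± 0.535 TPM in KO. *Rrm2b*, the p53-induced subunit of ribonucleotide reductase, differed by -0.08 (95% interval -0.42 to 0.25), at 5.62 ± 1.09 TPM in WT and 5.21 ± 0.409 TPM in KO. In both the groups overlapped, and the intervals leave room for differences in either direction.

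On the TPM scale, which is per length, the most abundant of the 35 genes in WT were *Ccng1* at 541 ± 118 TPM (SD, n = 3), *Plk2* at 291 ± 19.2, *Cdkn1a* at 267 ± 32.3 and *Phlda3* at 233 ± 18.7 TPM. Of these neighbours *Plk2* and *Cdkn1a* overlapped between samples, as did *Cdkn1a* and *Phlda3*. In KO the order was *Ccng1* at 879 ± 15.6 TPM, *Cdkn1a* at 469 ± 18.9, *Phlda3* at 383 ± 34.4 and *Plk2* at 348 ± 15.5 TPM, and only *Phlda3* and *Plk2* overlapped. *Ddb2* was the lowest in both groups, at 1.38 ± 0.275 and 0.530 ± 0.211 TPM. Exons of 4 further genes share bases with a gene on the opposite strand, 734 in *Rrm2b*, 337 in *Gadd45a*, 324 in *Ei24* and 84 in *Plk3*.

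Genes of the pathway outside the 35 were less uniform. Of 19 genes that act on p53, 17 were tested and none was called in limma, with 5 above and 6 below WT in every KO sample, beside 13.3% and 29.9% of all genes tested. At an adjusted p under 0.05 (limma, no minimum fold) 3 were higher and 4 lower, beside 7.14% and 20.7% of all genes tested. At an unadjusted p under 0.05 3 were higher and 6 lower. Voom called *Rchy1*, a p53 ubiquitin ligase, higher (3.98% of all genes tested) and *Atm* and *Atr*, the damage kinases, lower. No share of all genes is given here at an unadjusted p or for lower calls by voom. Those counts are therefore not read as results about these genes. The nearest to a call was *Cdkn2a*, whose locus encodes the MDM2 inhibitor ARF and the kinase inhibitor p16, with a log2 fold change of 0.73 (adjusted p = 0.00562), named after its values were seen. *Trp63* and *Trp73*, the relatives of p53, were at most at 2 and 5 reads in any library and were not tested. Of 30 further targets 29 were tested, with 6 called higher (20.7%, beside 1.64% of all genes tested) and 2 lower (6.90%, beside 9.03%, so the lower share was no larger than that of all genes). The median was 0.16, beside -0.07 for all genes tested. Those higher were *Ptprv*, a receptor phosphatase (log2 fold change 1.37 ± 0.24, SE), *Pidd1*, the core of the caspase-2 platform (1.17 ± 0.12), *Tob1*, an antiproliferative relative of *Btg2* (0.88 ± 0.10), *Igfbp3*, an IGF carrier (0.83 ± 0.16), *Zfp365* (0.73 ± 0.11) and *Siva1*, a proapoptotic adaptor (0.55 ± 0.11). *Ptprv* passed the filter only through its KO level. Lower were *Fuca1*, the lysosomal fucosidase (-0.78 ± 0.10), and *Trp53i11* (-0.72 ± 0.13). Over the 6 fits that left out a sample, *Pidd1*, *Tob1* and *Fuca1* stayed called in 6, *Ptprv* and *Zfp365* in 2, *Igfbp3* in 1, and *Siva1* and *Trp53i11* in 0. Every KO sample was above WT in 13 of the 29 tested further targets and below in 8, beside 13.3% and 29.9% of all genes. At an adjusted p under 0.05 (limma, no minimum fold) 11 were higher and 6 lower, beside 7.14% and 20.7% of all genes. Of the intrinsic apoptosis genes, *Bbc3* (0.89, adjusted p = 0.00771) and *Bax* (0.45, adjusted p = 0.00902) were not called, and *Pmaip1* differed by 0.14 with a 95% interval of -0.25 to 0.53. These 3 were named after their values were seen.

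**Figure D4:**
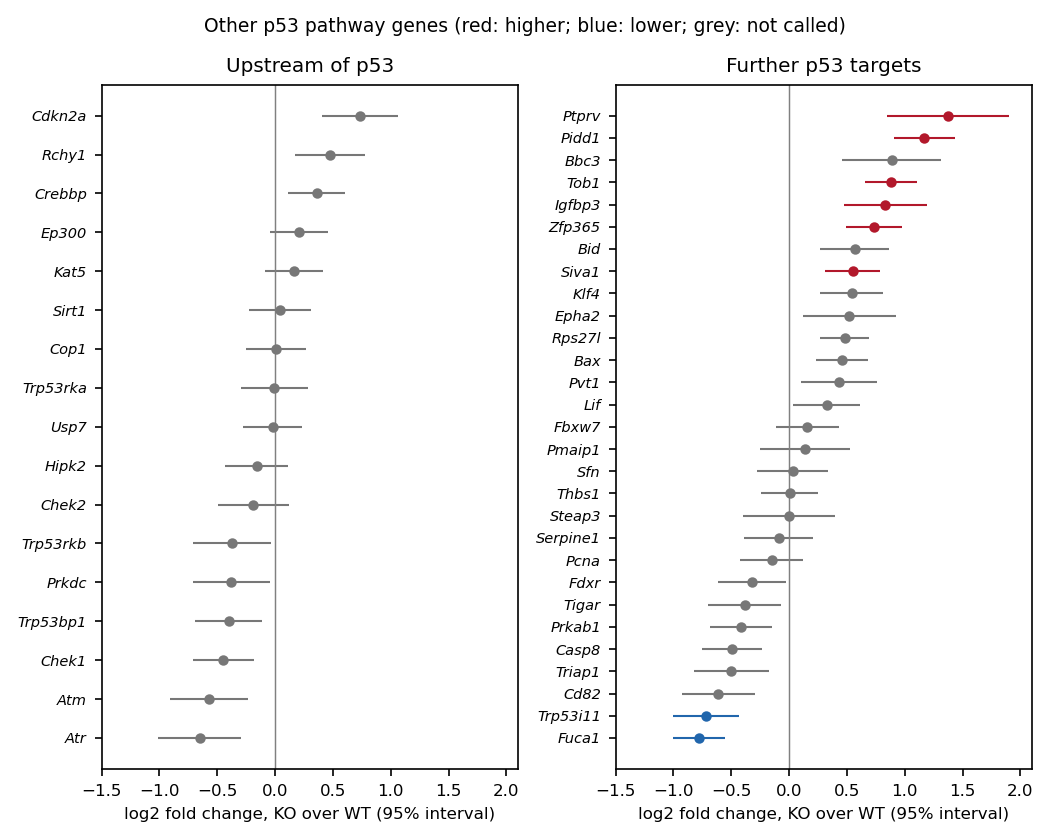
Log2 fold change (KO over WT, points) with its 95% interval (lines) for the 17 tested genes upstream of p53 (left) and the 29 tested further targets (right), red where called higher, blue where called lower and grey where not called. The upstream genes hold no call, and the further targets hold 6 red and 2 blue points.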

How the data were processed

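The study compared RNA-seq libraries of 3 WT and 3 KO MEF samples, grouped by their titles. Per its methods the authors aligned reads to mm10 with STAR, and the submitters' processing notes list Bowtie 0.12.2. The counting program and its use of strand are not given in the sources used here. The authors deposited TPM for 26898 genes, every sample having the same sum, beside columns of their own comparison (fold changes and adjusted p-values), which were not used. Whole reads were recovered from TPM and GENCODE M21 exon lengths, with 100% of the values checked within 0.05 of a whole number.

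The 14799 genes whose WT or KO mean reached 1 TPM were compared with limma 3.58.1 (run in R 4.3.3), two-sided, on log2-transformed TPM + 1, allowing a variance trend, with Benjamini-Hochberg adjustment over all of them. Calls used the thresholds of the study, an adjusted p under 0.005 and a log2 fold change beyond 0.5. Fold changes on this scale understate changes of low genes. The fit was tested on simulated data. The p-values set the difference between the group means against the spread within the groups of 3 samples. For each gene that spread was drawn towards the trend over all tested genes. Alternatives changed the pseudocount (0.1), the filter, the variance trend, the scaling, the kind of value (voom on recovered reads), the thresholds and the samples.

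The 35 genes, the other lists and the filter were chosen with earlier results of these data known. Every one of the 35 is accounted for. Values per sample are given for Trp53, Mdm2, Mdm4, Cdkn1a and each gene called or with an adjusted p under 0.05, and of the other pathway genes those called are named.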

Additional observations from a re-analysis of the deposited data

How the results depend on the processing

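No paired analysis was run, because the labels give no litter or other link between WT and KO samples. WT 4, 5 and 8 and KO 3, 7 and 10 share no replicate numbers, which does not show whether litters were shared. The 17 genes called higher of 35 became 4 with no filter (Abhd4, Dcxr, Pltp and Trp53inp1 remained), 9 with no variance trend, 16 with a pseudocount of 0.1, 20 with the 2 most abundant RNAs removed, 23 with median-of-ratios scaling and 25 with voom. A minimum of 10 TPM left 28 of them tested and 21 called. For that minimum, the variance trend, the pseudocount and the 2 removed RNAs no share of all genes is given here. The counts of those settings are therefore not read as results about the 35 genes. Leaving out 1 sample gave 7 (without KO 7) to 18 (without WT 4), that is 8 without WT 8, 10 without WT 5, and 9 without KO 3 or KO 10. The count of 0 lower became 1 at an adjusted p under 0.05 and stayed 0 in the other alternatives. For the other pathway genes, 6 higher became 2 with no filter, 12 with median-of-ratios scaling, 13 with voom, 10 at an adjusted p under 0.05 and 2 to 5 with 1 sample left out. Their 2 lower became 1 with no filter, 5 with the 2 RNAs removed, 5 with voom, 6 at an adjusted p under 0.05 and 1 with any sample left out. Over all genes, 242 higher became 55 with no filter, 473 with median-of-ratios scaling, 589 with voom, 694 at an adjusted p under 0.05 and 84 to 252 with 1 sample left out, and 1337 lower became 286, 1440, 1871, 2453 and 617 to 938. Kansl1 stayed between -0.87 and -0.77 with 1 sample left out. The direction turned for Rrm2b (0.0055 with median-of-ratios scaling, and from -0.15 to 0.047 with 1 sample left out, the highest without WT 4), Xpc (0.031 with that scaling, 0.0086 with voom) and Sesn1 (-0.019 without WT 8, up to 0.12 without WT 4), none of them called. Trp53 passed the p threshold with median-of-ratios scaling (0.30, adjusted p = 0.00456, limma) and voom (0.29, adjusted p = 0.00277) but not the fold threshold. The causes were not tested.

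Precision is limited by 3 samples a group. Ddb2, Fas, Gdf15, Pltp and Perp had low read numbers, whose part in the precision was not tested. Of the fits to all 6 samples, 251 results kept their side of the threshold, 32 passed it, 22 fell below it and 3 reversed. With 1 sample left out, 155 kept their side, 6 passed it, 47 fell below it and 2 reversed.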

Other observations

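Cell cycle genes are among those that p53 is known to hold down, mostly through p21. Of 18 proliferation genes 8 were called lower and none higher (limma, 0 also at an unadjusted p under 0.05 and with voom), against 9.03% lower among all genes tested, with a median log2 fold change of -0.69 beside -0.07 for all. The mitotic checkpoint kinase Bub1 had the lowest value, -1.23 ± 0.17 (SE, adjusted p = 0.000934, limma), at 30.0 ± 4.73 TPM (SD, n = 3) in WT and 12.3 ± 2.54 TPM in KO. Cyclin B2 (Ccnb2) was at 71.5 ± 5.29 and 34.95 ± 5.46 TPM (-1.02 ± 0.13, adjusted p = 0.000689, limma), and cyclin A2 (Ccna2) at 56.3 ± 5.44 and 29.1 ± 5.65 TPM (-0.94 ± 0.15, adjusted p = 0.00188, limma). Mcm2, Mcm3, Mcm5 and Mcm6, which license replication, differed by -0.41, -0.42, -0.50 and -0.49 on the log2 scale. The mitotic genes Aurka and Cdc20 differed by -0.51 and -0.52. None of these 6 was called. 1 of the 18, Pcna, is also among the further p53 targets. Whether the levels of the p53 targets and of these genes are linked was not tested.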
